A study of Gallus gallus with 25 samples.

Results

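Contact domains of the smallest chicken microchromosomes were examined in 4 Hi-C maps of growing oocytes. All domains on a chromosome numbered 16 or above were taken from the 4 automatic domain lists, which gave 514 of 5602 domains. Chromosome 16 itself has no domain in these lists, so the members lie on 12 chromosomes, 17 to 28. There were 117 member domains of 1132 in the post-LBC type 1 map, 105 of 1342 in the post-LBC type 2 map, 156 of 1546 in the LBC type 1 map and 136 of 1582 in the LBC type 2 map. The other domains lie on 16 chromosomes, 1 to 15 and Z.

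Hi-C was performed on single nuclei of wild-type chicken oocytes, dissected from the ovary of healthy birds. Post-LBC oocytes, in which the lampbrush chromosomes (LBCs) have already condensed, measured 4 to 7 mm and gave 5 nuclei, whereas LBC oocytes measured 1 to 2 mm and gave 20 nuclei. Nuclei of both stages were divided by the study into type 1, with a low share of contacts between chromosomes, and type 2, with a high share. The paper leaves the origin of the types open and used only type 1 in its main domain analyses. It proposes that LBC type 2 nuclei precede the lampbrush stage, and calls contamination by a somatic cell unlikely. Their boundaries clustered with those of fibroblasts. Post-LBC type 2 is taken there as likely later than post-LBC type 1. The maps pool 4 nuclei for post-LBC type 1, 1 nucleus for post-LBC type 2, 14 nuclei for LBC type 1 and 6 nuclei for LBC type 2. No genotype, treatment or age difference is given in the labels, and which nuclei came from the same bird is not given there either.

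Lampbrush chromosomes are giant diplotene bivalents whose intensely transcribed loops extend from an axis of compact chromomeres. As the oocyte grows further, the loops retract, transcription declines and the chromosomes shorten. Contact domains are stretches of a chromosome whose loci contact each other more often than their neighbours, and in lampbrush chromosomes they can be set against chromomeres and loops. Avian microchromosomes are small, rich in genes and GC, and replicate early.

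The lists hold domain starts and ends on the assembly ASM2420605v2 and no contact strength, so the depth behind a single boundary is unknown. In the 4 automatic lists, every coordinate lies on a grid of 16 kb, no domains overlap, and the shortest domain has 208 kb. Each map is a single pool, so intervals over domains or boundaries describe the spread within that map only, and neighbouring domains share a boundary. Tests were run over the 4 maps as units and could not pass the usual threshold. The smallest p is 0.125 for a contrast within the 4 maps and 0.33 for 2 maps against 2. The p-values measure the spread between these 4 pools.

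On chromosomes 17 to 28, domains were fewer and longer in the post-LBC maps. Median domain length was 720 kb in post-LBC type 1 (95% interval from order statistics 672 to 816) and 536 kb in LBC type 1 (512 to 576). It was 768 kb in post-LBC type 2 (672 to 864) and 624 kb in LBC type 2 (576 to 656). The middle range, from the lower to the upper quartile, was 512 to 944 kb in post-LBC type 1, 528 to 1008 kb in post-LBC type 2, 400 to 688 kb in LBC type 1, and 480 to 772 kb in LBC type 2. The interval of each post-LBC map lay above that of the LBC map of the same type. These intervals run over the domains of 1 pooled map each. They do not measure the spread between nuclei of a stage. Domains longer than 1 Mb made up 18.8% (22 of 117) of the list in post-LBC type 1 and 25.7% (27 of 105) in post-LBC type 2, against 1.92% (3 of 156) in LBC type 1 and 4.41% (6 of 136) in LBC type 2. Over the whole lists, these shares were 36.0% in post-LBC type 1 and 19.5% in post-LBC type 2. They were 10.1% in LBC type 1 and 4.80% in LBC type 2. At the short end, 6, 4, 14 and 6 domains were under 300 kb, in the same order of maps. These were 5.13%, 3.81%, 8.97% and 4.41%, against 2.21%, 7.30%, 6.66% and 3.54% over the whole lists.

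The direction was the same on each chromosome. Fewer domains were found in the post-LBC map than in the LBC map of the same type on 12 of 12 chromosomes in type 1, and on 12 of 12 in type 2. Mean domain length was 1.33 times higher in post-LBC type 1 than in LBC type 1 (736 and 554 kb) and 1.27 times higher in post-LBC type 2 than in LBC type 2 (807 and 635 kb). On all other chromosomes these ratios were 1.38 and 1.15. By chromosome, the type 1 ratio ran from 1.11 on chromosome 24 to 1.60 on chromosome 21, with a median of 1.36. The type 2 ratio ran from 1.11 on chromosome 28 to 1.49 on chromosome 25, with a median of 1.30. The mean over the 2 post-LBC maps was 771 kb, against 595 kb over the 2 LBC maps, and both post-LBC maps lay above both LBC maps (exact two-sided permutation test, p = 0.33, the smallest it can give). The post-LBC maps also pool fewer nuclei in both types, so stage and the number of pooled nuclei cannot be told apart here. For type 2, the stages are those of the labels, and the paper proposes others.

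The number of domains followed the size of the chromosome. The span, from the first to the last boundary, covered 88.4 Mb over the 12 chromosomes in post-LBC type 1, 87.0 Mb in post-LBC type 2, 89.0 Mb in LBC type 1 and 88.9 Mb in LBC type 2. Chromosome 20, with a span of 14.0 Mb in each map, held 17, 17, 24 and 23 domains in post-LBC type 1, post-LBC type 2, LBC type 1 and LBC type 2. It held the most in every map. Chromosome 18 followed with 14, 14, 18 and 16 domains over 11.1 Mb, in the same order of maps. Chromosome 19 had 14, 13, 18 and 15 domains, and chromosome 17 had 12, 11, 17 and 16. The remaining 8 chromosomes, 21 to 28, had 3 to 14 domains each. Chromosome 25, with the shortest span, had the fewest in post-LBC type 2, where 3 domains covered 2352 kb. It had 6 domains in post-LBC type 1, 8 in LBC type 1 and 6 in LBC type 2.

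**Figure D1:**
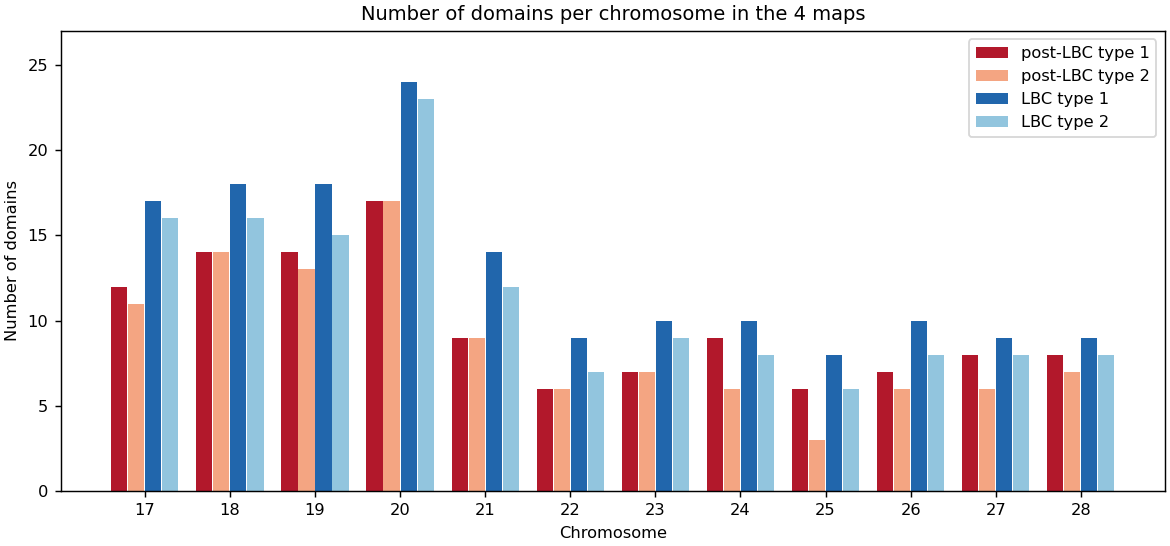
Number of domains on each chromosome from 17 to 28, with 1 bar per pooled map. On 12 of 12 chromosomes the post-LBC bar is shorter than the LBC bar of the same type, and LBC type 1 has the tallest bar.

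Across the 12 chromosomes, domain number and span correlated with a Pearson r of 0.975 in post-LBC type 1, 0.974 in post-LBC type 2, 0.974 in LBC type 1 and 0.977 in LBC type 2 (Spearman rho 0.952, 0.909, 0.932 and 0.938). Mean domain length followed the span less closely, with r of 0.644, 0.153, 0.525 and 0.224 in the same order of maps. These correlations describe the chromosomes of 1 map each, whose domains come from the same nuclei and the same call. Longer members of the set therefore held more domains. Domains fill nearly all of the span, so their number is close to span over mean length and largely has to rise with span. How far longer chromosomes also held longer domains differed between the maps.

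The longest domain had 1616 kb in post-LBC type 1 (chromosome 18 from 3648001 to 5264000), 1792 kb in post-LBC type 2 (chromosome 24 from 2480001 to 4272000), 1248 kb in LBC type 1 (chromosome 22 from 3712001 to 4960000) and 1408 kb in LBC type 2 (chromosome 19 from 2416001 to 3824000). The longest LBC type 1 domain was the last of its chromosome, and the other 3 were interior. The shortest domain of both post-LBC maps was the same stretch of chromosome 25, from 2464001 to 2672000, with 208 kb. In LBC type 1, 4 domains had 208 kb. They lay on chromosome 22 from 3056001 to 3264000 and from 3264001 to 3472000, on chromosome 25 from 2480001 to 2688000 and on chromosome 27 from 768001 to 976000. In LBC type 2, the shortest had 224 kb, on chromosome 22 from 4736001 to 4960000 and on chromosome 25 from 2784001 to 3008000. Short domains at the limit of the lists thus lay on chromosomes 22, 25 and 27.

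Nearly all of the span was assigned to domains. They covered 97.4% in post-LBC type 1, 97.3% in post-LBC type 2, 97.1% in LBC type 1 and 97.1% in LBC type 2, and left 12, 13, 14 and 13 gaps. Median gap length was 128 kb, 176 kb, 144 kb and 64 kb in the same order. Several gaps recurred. On chromosome 24 a gap of 624 kb, from 5680001 to 6304000, was the same in post-LBC type 1, LBC type 1 and LBC type 2, and in post-LBC type 2 it had 656 kb, from 5632001 to 6288000. On chromosome 22 the second gap, which began between 3.4 and 3.5 Mb, measured 304 kb in post-LBC type 1, 176 kb in post-LBC type 2, 240 kb in LBC type 1 and 320 kb in LBC type 2. The longest gap was on chromosome 27 in LBC type 2, with 1040 kb from 592001 to 1632000. Both type 1 maps placed a domain within that stretch. Domains were lacking at the same place of chromosome 24 in each map, whereas the gaps of chromosome 27 differed between the maps.

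Median domain length on chromosomes 17 to 28 was shorter than on the other chromosomes in both type 1 maps. It was longer in both type 2 maps, in LBC type 2 by 16 kb only. The median was 720 kb against 880 kb on all other chromosomes in post-LBC type 1, and 768 kb against 688 kb in post-LBC type 2. It was 536 kb against 600 kb in LBC type 1, and 624 kb against 608 kb in LBC type 2. The sign thus went with the type of the map and not with its stage. Type 1 maps pool more nuclei at both stages, so type and the number of pooled nuclei cannot be told apart. The difference averaged -32 kb over the 4 maps, with 2 maps above 0 and 2 below (exact two-sided sign-flip permutation test over 4 maps, p = 0.75, 0.938 after Benjamini-Hochberg adjustment over 5 tests). Against the larger microchromosomes 11 to 15, the medians differed by -80 kb in post-LBC type 1, 64 kb in post-LBC type 2, -24 kb in LBC type 1 and 0 kb in LBC type 2 (same test, p = 0.75, adjusted 0.938). Both comparisons had the same sign in the 3 maps other than LBC type 2. The density of interior boundaries was 1.32 per Mb in post-LBC type 1, against 1.16 on all other chromosomes, and 1.22 against 1.495 in post-LBC type 2. It was 1.77 against 1.61 per Mb in LBC type 1, and 1.54 against 1.65 per Mb in LBC type 2 (exact sign-flip test, p = 1, adjusted 1). Neither contrast had the same sign in the 4 maps.

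The types also stood in another order here. Type 1 maps had more domains than type 2 maps on chromosomes 17 to 28, by a ratio of 1.11 at the post-LBC stage (117 and 105) and of 1.15 at the LBC stage (156 and 136). On all other chromosomes, type 1 maps had fewer, with ratios of 0.821 and 0.961. The remaining classes were then taken singly. On chromosomes 11 to 15 the ratio was 0.878 at the post-LBC stage and 1.11 at the LBC stage. On chromosomes 6 to 10 it was 0.847 and 1.08, on chromosomes 1 to 5 it was 0.804 and 0.921, and on Z it was 0.847 and 0.875. At the post-LBC stage, the smallest microchromosomes were thus the only class of these 5 with more domains in type 1. By chromosome, LBC type 1 had more domains than LBC type 2 on 12 of 12, and post-LBC type 1 had more than post-LBC type 2 on 7 and the same number on 5. With 1 map per stage and type, the difference between the chromosome classes was not tested. The type 1 map also pools more nuclei than the type 2 map at both stages. The methods scale the size parameter of the caller by the size of the chromosome. The part of that step in differences between small and large chromosomes was not tested.

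**Figure D2:**
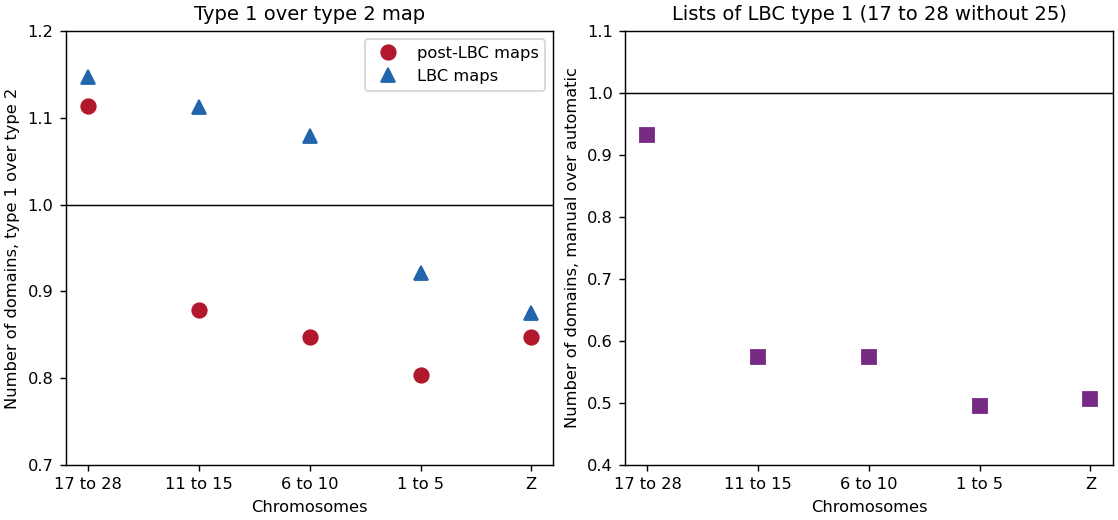
Left, number of domains in the type 1 map over that in the type 2 map for 5 classes of chromosomes, at the post-LBC stage (circles) and the LBC stage (triangles), with a line at 1. Chromosomes 17 to 28 lie at 1.11 and 1.15, and only there is the post-LBC ratio above 1. Right, number of domains in the manually refined list over that in the automatic list of LBC type 1, 0.932 for chromosomes 17 to 28 without 25 and 0.495 to 0.574 for the other classes.

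For LBC type 1, the study also deposited a list refined by hand, and the smallest microchromosomes stood apart in how far it differed from the automatic list. On the 11 chromosomes of the set that both lists hold (17 to 28 without 25), the manual list had 138 domains and the automatic list 148, a ratio of 0.932. On the 16 other chromosomes there were 721 manual and 1390 automatic domains, a ratio of 0.519, and on chromosomes 11 to 15 there were 85 and 148, a ratio of 0.574. The manual median was 506.5 kb and the automatic median 552 kb on the smallest microchromosomes, whereas they were 1062 and 600 kb on all other chromosomes. The ratio of single chromosomes ran from 0.7 on chromosome 23 to 1.44 on chromosome 27 within the set and from 0.415 to 0.686 on the others. The ranges nearly met, with 7 manual and 10 automatic domains on chromosome 23 and 24 and 35 on chromosome 10. On chromosome 27 the manual list begins at 1650 kb and the automatic list at 320 kb, so they cover different stretches. The manual list also has a gap of 1087 kb on chromosome 28. The manual list had more domains than the automatic list on 4 chromosomes of the set, with 10 and 9 on chromosome 22, 11 and 10 on chromosome 24, 12 and 10 on chromosome 26, and 13 and 9 on chromosome 27. None of the 16 others had more.

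Manual and automatic boundaries nevertheless differed in place. In the manual list, neighbouring domains can overlap or lie a few kb apart, and such an offset end and start counted as 2 boundaries. On chromosome 17, for example, a manual domain ends at 1888000 and the next starts at 1880001. Of 175 manual boundaries on these 11 chromosomes, 135 had an automatic boundary within 80 kb, 77.1% (95% Wilson interval 70.4% to 82.7%), against 85.7% over all shared chromosomes and 87.3% on the 16 others. Conversely, a manual boundary was found near 122 of 171 automatic boundaries, 71.3% (64.2% to 77.6%), against 49% over all shared chromosomes and 46.5% on the 16 others. The manual list was made from the same contacts, so it is no independent measurement, and this contrast comes from a single map and has no test.

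The first and the last domain of each chromosome were set against the interior ones, which gave 24 end domains per map. End domains had a median of 728 kb in post-LBC type 1 (95% interval 544 to 912), against 720 kb for 93 interior domains. In post-LBC type 2, the medians were 728 kb (496 to 960) for end and 768 kb for 81 interior domains. In LBC type 1 they were 568 kb (416 to 688) for end and 528 kb for 132 interior domains, and in LBC type 2 they were 568 kb (448 to 640) for end and 632 kb for 112 interior domains. The median of the end domains was thus higher in the type 1 maps, by 8 kb at the post-LBC and 40 kb at the LBC stage, and lower in the type 2 maps. This division by type was not stable. With means, end and interior domains had 734 and 737 kb in post-LBC type 1, so that 1 map was above 0 and 3 below, and without chromosome 17 the end median was below the interior median in 4 of 4 maps. The difference of medians averaged -14 kb over the maps and had no common sign (exact two-sided sign-flip test over 4 maps, p = 0.75, adjusted 0.938).

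Lengths at both places overlapped over most of their range. End domains ran from 224 to 1360 kb in post-LBC type 1, 208 to 1440 kb in post-LBC type 2, 256 to 1248 kb in LBC type 1 and 224 to 864 kb in LBC type 2. Interior domains ran from 208 to 1616 kb, 240 to 1792 kb, 208 to 1152 kb and 224 to 1408 kb in the same order. The mean of the end domains was above that of the interior domains on 6, 7, 6 and 3 of the 12 chromosomes. On the 16 other chromosomes, end minus interior medians were -136, 56, -96 and -48 kb.

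**Figure D3:**
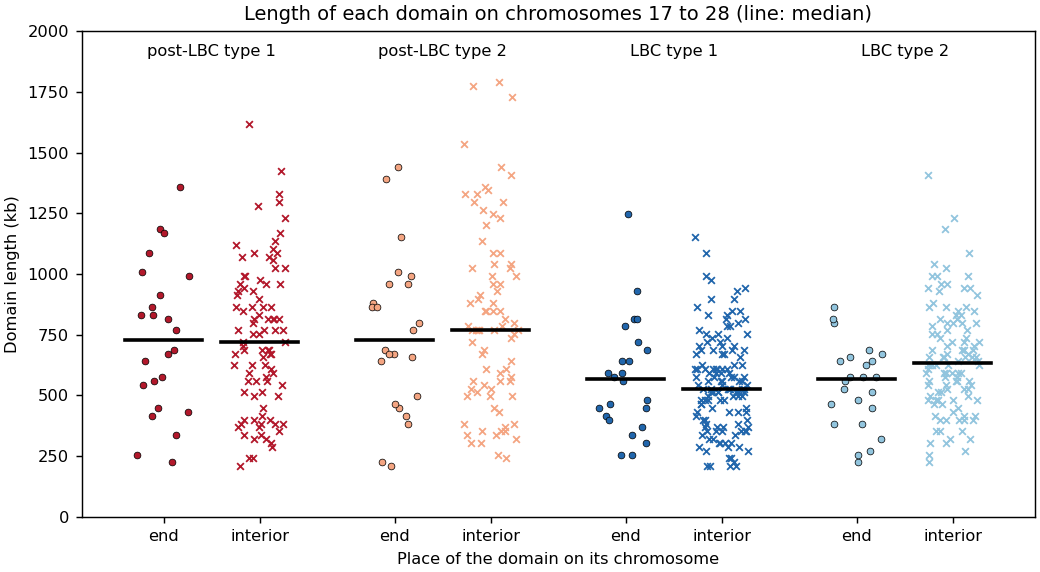
Length of each of the 514 domains in kb, for end domains (circles) and interior domains (crosses) of the 4 pooled maps, with a line at the median. End medians are 728, 728, 568 and 568 kb and interior medians 720, 768, 528 and 632 kb from left to right, and the clouds overlap in each map.

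The outermost boundaries had the most similar positions in the 4 maps. They are the limits of the called stretch of a chromosome, and how far the assembly sets them was not tested. The first boundary lay within 80 kb in the 4 maps on 11 of the 12 chromosomes and the last boundary on 11 of 12. On 6 chromosomes (17, 18, 19, 20, 23 and 28) the first domain began 960 to 1392 kb from the start of the assembled chromosome, and on 5 (21, 22, 24, 25 and 26) it began 16 to 64 kb from it. The exceptions were the first boundary of chromosome 27, at 336 kb in post-LBC type 1, 1504 kb in post-LBC type 2, 320 kb in LBC type 1 and 320 kb in LBC type 2, and the last of chromosome 25, at 2992, 2672, 3392 and 3392 kb in the same order. Post-LBC type 2 thus lacked domains at the start of chromosome 27, where the other maps had them. At the end of chromosome 25 both post-LBC maps stopped short of the LBC maps, post-LBC type 2 by more.

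A start and an end shared by neighbours counted once, and edges of gaps counted as boundaries. Counted next were boundaries that lay within 80 kb of one in each of the 3 other maps. In post-LBC type 1, these were 53 of 141 boundaries, 37.6% (95% Wilson interval 30% to 45.8%), against 32.1% over the whole list and 31.4% on all other chromosomes. In post-LBC type 2, they were 51 of 130, 39.2% (31.3% to 47.8%), against 26% over the whole list and 24.8% on the others. In LBC type 1, they were 52 of 182, 28.6% (22.5% to 35.5%), against 23.4% and 22.8%, and in LBC type 2 they were 50 of 161, 31.1% (24.4% to 38.6%), against 22.4% and 21.5%. In each map the share lay above that of the other chromosomes and of the whole list. Of the 16 kb grid positions between the outermost boundaries of chromosomes 17 to 28, 8.03%, 10.7%, 7.60% and 11.2% lay that close to boundaries of each of the 3 other maps, in the same order. On all other chromosomes these were 6.89%, 7.90%, 6.14% and 8.74%, which is lower in each map. The share was higher on the smallest microchromosomes than on all others by 8.98 percentage points on average. A boundary found in all 4 maps is counted from each of them, so the 4 differences describe nearly the same sites and are given with no test. Chromosomes 11 to 15 had shares of 43.4%, 37.1%, 30.5% and 33.1%, which the smallest microchromosomes exceeded in post-LBC type 2 only, and the difference from them averaged -1.92 points. Their shares of grid positions were 9.19%, 10.7%, 8.35% and 11.5%.

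This higher share went with the outermost boundaries, which are a larger part of all boundaries on small chromosomes. Without them in any map, 30 of 117 boundaries were found in all 4 maps in post-LBC type 1, 25.6% (29.7% over the whole list and 30.2% on the others). In post-LBC type 2, there were 28 of 106, 26.4% (23.9% and 23.7%). In LBC type 1, there were 29 of 158, 18.4% (21.3% and 21.7%), and in LBC type 2 there were 27 of 137, 19.7% (20.3% and 20.4%). The difference from all other chromosomes was then -1.44 percentage points on average, above 0 in post-LBC type 2 and below it in the other maps. Against chromosomes 11 to 15, also without the outermost boundaries, it was -9.31 points on average. Interior boundaries of the smallest microchromosomes were therefore found in all 4 maps at a share near that of the whole list, and the larger microchromosomes had the higher shares, 38.8%, 32.8%, 26.8% and 29.0%. Shares of grid positions, also without the outermost boundaries, were higher there too. They were 8.27%, 10.0%, 7.37% and 10.7% on chromosomes 11 to 15, against 5.77%, 8.46%, 5.04% and 8.71% on the smallest microchromosomes.

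**Figure D4:**
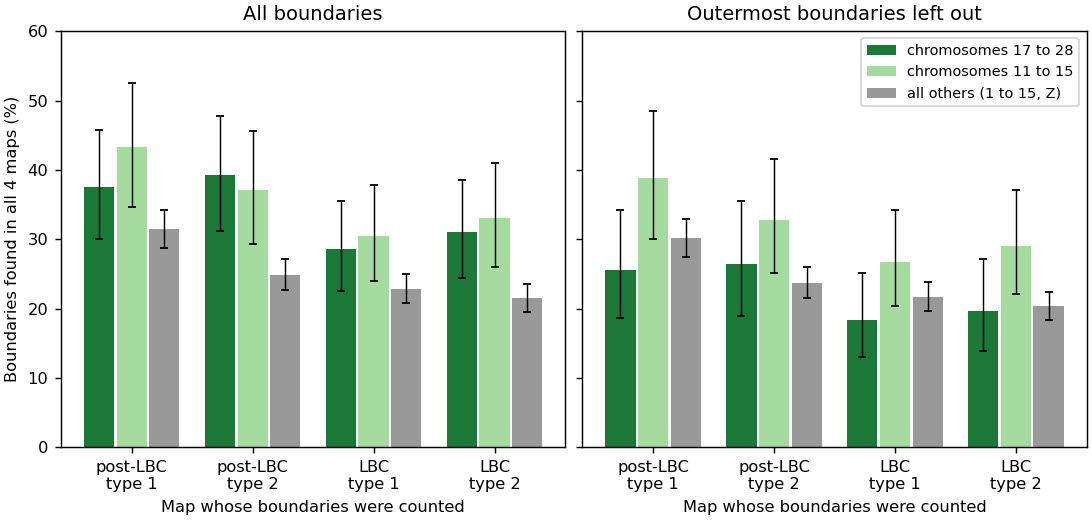
Share of the boundaries of each map, in percent, that were found within 80 kb in all 4 maps, for chromosomes 17 to 28, chromosomes 11 to 15 and all other chromosomes, with 95% Wilson intervals. With all boundaries (left) the smallest microchromosomes lie above all others by 8.98 points on average. Without the outermost boundaries (right) they differ from them by -1.44 points and from chromosomes 11 to 15 by -9.31 points.

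Sharing differed between the 12 chromosomes. Counterparts at outermost positions of other maps are included here. On chromosome 23, none of 6, 6, 9 and 8 boundaries inside the outermost ones was found in all 4 maps, counted in post-LBC type 1, post-LBC type 2, LBC type 1 and LBC type 2. On chromosome 18, 1 of 14, 1 of 14, 2 of 18 and 1 of 16 were. The highest shares were on chromosome 25, with 5 of 8, 3 of 4, 4 of 9 and 5 of 8. Chromosome 26 had 3 shared boundaries in each map, of 6, 5, 9 and 7. It was level with chromosome 28 in LBC type 1. Chromosome 25 has the shortest span of the set, and these shares rest on few boundaries. Some of the shared boundaries are edges of gaps and not borders between neighbouring domains. In LBC type 1 these were 2336000, 2480000 and 2688000 on chromosome 25 and 1440000, 3472000 and 3712000 on chromosome 22. Others were 5680000 and 6304000 on chromosome 24, and 2288000 and 2304000 on chromosome 28.

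Seen from LBC type 1, 11 of 182 boundaries had the same coordinate in all 4 maps, 6.04% against 4.85% over the whole list. Of these, 10 were outermost and so at the limits of the called stretch. They were the first boundaries of chromosomes 20 (1312000), 26 (32000) and 28 (960000) and the last boundaries of chromosomes 17 (11312000), 18 (12128000), 20 (15312000), 21 (6816000), 23 (6880000), 27 (6272000) and 28 (5904000). Only the boundary at 6944000 of chromosome 20 was interior, 1 of 158 boundaries inside the outermost ones. The share of the whole list without its outermost boundaries was not counted. The 6.04% is therefore no excess of interior boundaries. For the 30 LBC type 1 boundaries that were not outermost and had counterparts in all 4 maps, the distance between the lowest and the highest position had a median of 40 kb. The greatest was 144 kb, where 80 kb was the limit on each distance from LBC type 1.

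Boundaries unique to a map were fewest in post-LBC type 1. There, 13 of 141 boundaries, 9.22%, had none within 80 kb in any other map, against 9.73% over the whole list. In post-LBC type 2, the map of 1 nucleus, there were 19 of 130, 14.6% against 28.5%. In LBC type 1, there were 27 of 182, 14.8% against 18.7%, and in LBC type 2 there were 42 of 161, 26.1% against 32.3%. Without the outermost boundaries, the shares were 11.1% against 10.1% in post-LBC type 1, 17.9% against 29.4% in post-LBC type 2, 17.1% against 19.2% in LBC type 1 and 31.4% against 33.4% in LBC type 2. The share of the smallest microchromosomes was thus below the whole list in 3 maps under both counts. On chromosomes 11 to 15 the share with all boundaries was 5.31%, 22.7%, 12.6% and 22.3%, in the same order of maps. The smallest microchromosomes lay below these values in post-LBC type 2 only.

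Between pairs of maps, boundaries of post-LBC type 1 were found most often in LBC type 1. Of 141 boundaries, 116 had one there, 82.3% (95% Wilson interval 75.1% to 87.7%), against 75.3% over the whole list. In the other direction, 113 of 182 LBC type 1 boundaries were found in post-LBC type 1, 62.1%, against 54.9% over the whole list. In type 2, 68 of 130 post-LBC boundaries had one in LBC type 2, 52.3%, against 44.5%, and 68 of 161 LBC boundaries had one in post-LBC type 2, 42.2%, against 39.7%. The F1 score, from one-to-one pairs within 80 kb, was 0.700 for post-LBC type 1 with LBC type 1 and 0.460 for post-LBC type 2 with LBC type 2, the highest and the lowest of the 6 pairs. The same pairs were highest and lowest over the whole list (0.632 and 0.411) and on chromosomes 11 to 15 (0.7 and 0.471). Without the outermost boundaries they had 0.655 and 0.362 here. The whole list then had 0.621 and 0.394, and chromosomes 11 to 15 had 0.685 and 0.431.

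Within a stage, 85 of 141 post-LBC type 1 boundaries were found in post-LBC type 2 (60.3%, against 59.9% over the whole list), and 104 of 182 LBC type 1 boundaries in LBC type 2 (57.1%, against 53%). Post-LBC type 2 boundaries had a counterpart in post-LBC type 1 for 86 of 130 (66.2%, against 49.1%) and in LBC type 1 for 89 of 130 (68.5%, against 53.3%). LBC type 2 boundaries had one in LBC type 1 for 105 of 161 (65.2%, against 52.7%). Across stage and type, 78 of 141 post-LBC type 1 boundaries were found in LBC type 2 (55.3%, against 53.7%) and 77 of 161 LBC type 2 boundaries in post-LBC type 1 (47.8%, against 38.8%). Of the LBC type 1 boundaries, 88 of 182 were found in post-LBC type 2 (48.4%, against 47.6%). The F1 scores were 0.627 for the post-LBC types, 0.606 for the LBC types, 0.564 for post-LBC type 2 with LBC type 1 and 0.510 for post-LBC type 1 with LBC type 2. In the same order they were 0.529, 0.526, 0.494 and 0.449 over the whole list. On chromosomes 11 to 15 they were 0.596, 0.641, 0.569 and 0.506. Boundaries of the type 2 maps were thus found in LBC type 1 more often than LBC type 1 boundaries were found in them, and LBC type 1 has the most boundaries.

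As for the boundaries of all 4 maps, part of these shares came from the outermost boundaries. Without them, the share of the type 1 stage pair was 79.5% from post-LBC type 1 to LBC type 1 (93 of 117, against 74.5% over the whole list) and 57.0% from LBC type 1 to post-LBC type 1 (90 of 158, against 53.7%). The type 2 stage pair had 42.5% from post-LBC type 2 to LBC type 2 (45 of 106, against 42.7%) and 32.8% from LBC type 2 to post-LBC type 2 (45 of 137, against 37.9%). The share of the smallest microchromosomes was thus above the whole list in both directions of the type 1 pair. It was below the whole list in both directions of the type 2 pair. Shares of 16 kb grid positions within 80 kb of the other map's boundaries, also without the outermost ones, differed in the same directions. For the type 1 pair they were 30.4% against 27.8% over the whole list and 22.5% against 20.2%, in the same order. For the type 2 pair they were 25.8% against 27.97% and 20.5% against 24.9%. How far the boundary shares follow these grid shares was not tested. On chromosomes 11 to 15 the boundary shares of the type 1 pair were 87.4% and 56.7%. Those of the type 2 pair were 45.9% and 42.0%. Only from LBC type 1 to post-LBC type 1 were the smallest microchromosomes above chromosomes 11 to 15.

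Within a stage and without the outermost boundaries, 61 of 117 post-LBC type 1 boundaries were found in post-LBC type 2 (52.1%, against 58.3%) and 62 of 106 post-LBC type 2 boundaries in post-LBC type 1 (58.5%, against 47.5%). For the LBC stage, 80 of 158 LBC type 1 boundaries were found in LBC type 2 (50.6%, against 51.6%) and 81 of 137 LBC type 2 boundaries in LBC type 1 (59.1%, against 51.3%). Boundaries of the type 1 maps lay below the whole list and those of the type 2 maps above it. On chromosomes 11 to 15 these shares were 63.1%, 54.1%, 58.0% and 67.4%, higher than here in all but that from post-LBC type 2. Across stage and type, post-LBC type 1 boundaries had a counterpart in LBC type 2 for 54 of 117 (46.2%, against 51.7%) and LBC type 2 boundaries in post-LBC type 1 for 53 of 137 (38.7%, against 36.9%). The counts were 66 of 106 for post-LBC type 2 in LBC type 1 (62.3%, against 52%) and 65 of 158 for LBC type 1 in post-LBC type 2 (41.1%, against 46.3%). On chromosomes 11 to 15 the shares across stage and type were 55.3%, 41.3%, 63.1% and 47.8% in the same order, each higher than here. Without the outermost boundaries, 6 of the 12 shares were above those of the whole lists and 6 below. The share of grid positions lay on the same side of the whole list in each of the 12.

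Whole domains were matched by both of their boundaries. Of 117 post-LBC type 1 domains, 46 (39.3%) had both boundaries within 80 kb of those of an LBC type 1 domain. The share was 33.7% over the whole list and 34.7% on chromosomes 11 to 15. From post-LBC type 2 to LBC type 2 it was 15.2% here and 11.3% on chromosomes 11 to 15. Within a stage, chromosomes 11 to 15 had the higher shares. They had 32.7% from post-LBC type 1 to post-LBC type 2, against 23.9% here. From LBC type 1 to LBC type 2 they had 35.8%, against 25.6% here. In all 4 maps, both boundaries coincided for 6 of the 156 LBC type 1 domains, 3.85% against 2.59% over the whole list. On chromosomes 11 to 15 the share was higher, 6.08% (9 of 148). In LBC type 1, 3 of these 6 domains lay at the ends of chromosomes. The first domain of chromosome 26, from 32001 to 720000 in LBC type 1, measured 688 kb in post-LBC type 1, 672 kb in post-LBC type 2, 688 kb in LBC type 1 and 688 kb in LBC type 2. The last domain of chromosome 20, from 14672001 to 15312000 in LBC type 1, measured 640, 656, 640 and 640 kb, and the last of chromosome 24, from 6304001 to 6752000, measured 432, 448, 448 and 384 kb.

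The other domains kept in all 4 maps lay on chromosomes 19, 25 and 26 and were interior in LBC type 1. On chromosome 19, the domain from 4752001 to 5488000 in LBC type 1 measured 816, 752, 736 and 656 kb in post-LBC type 1, post-LBC type 2, LBC type 1 and LBC type 2. On chromosome 26, that from 1984001 to 2752000 measured 768, 784, 768 and 688 kb. On chromosome 25, that from 2480001 to 2688000 measured 208, 208, 208 and 272 kb, and it had gaps before it in the 4 maps. In post-LBC type 2 it was the last domain of the chromosome, and in the other maps a gap followed it.

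**Figure D5:**
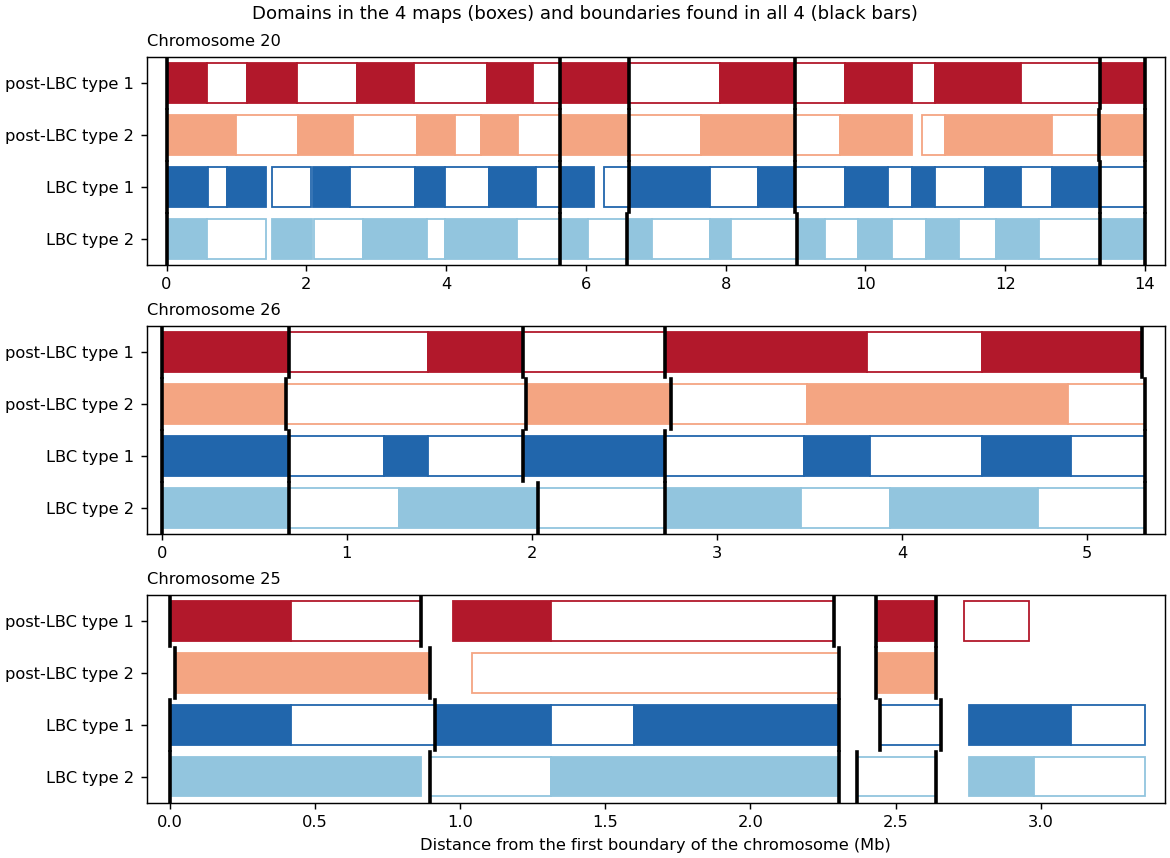
Domains of chromosomes 20, 26 and 25 in the 4 pooled maps, drawn to scale as boxes, filled and open in turn, against the distance from the first boundary of the chromosome in Mb. Black bars mark boundaries of LBC type 1 that were found within 80 kb in all 4 maps, each drawn at the position of that map. Chromosome 20 has 6 such boundaries and chromosomes 26 and 25 have 5 each, and fewer, longer boxes fill the post-LBC rows.

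Finally, post-LBC domains were set against the LBC domains that they contain. Of 117 post-LBC type 1 domains, 39 held the middles of 2 or more LBC type 1 domains, 33.3% against 35% over the whole list. Of these 39, 36 held 2 and 3 held 3. Of 105 post-LBC type 2 domains, 27 held 2 or more LBC type 2 domains, 25.7% against 26.1%. On chromosome 17, the post-LBC type 1 domain from 1952001 to 3376000, with 1424 kb, held 3. Most post-LBC domains, 74 of 117 in type 1 and 73 of 105 in type 2, held the middle of 1 LBC domain. The shares of domains that held 2 or more were thus close to those of the whole lists. On chromosomes 11 to 15 they were higher, 46.5% (47 of 101) in type 1 and 27.8% (32 of 115) in type 2.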

How the data were processed

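Chicken oocyte nuclei were grouped by the labels. The authors trimmed reads with cutadapt, aligned them with juicer to ASM2420605v2, applied a mapping quality minimum of 30, stored contacts with cooler without balancing, and called domains with lavaburst on merged nuclei. The size parameter, scaled by chromosome size, was chosen for single oocytes to give a mean near 1 Mb at a resolution of 20 kb. How it was set for merged maps and how the deposited lists were adjusted is not given in the sources used here. The deposited values are domain starts and ends in bp, in 4 automatic lists and 1 manual list, which lacks chromosome 25 and has 5 domains on chromosome 33 that were left out.

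Lists were compared in Python 3.11.15 with numpy 2.4.6 and scipy 1.17.1, with exact two-sided permutation tests over maps, Benjamini-Hochberg adjustment over 5 sign-flip tests, of which that on boundaries in all 4 maps is not given because the maps count the same sites, 95% Wilson intervals for shares, and a tolerance of 80 kb, after the methods. Functions were tested on simulated data. The members, lists and comparisons were chosen with earlier results of these data known. Domains and boundaries are named if they are the longest or shortest of a map, coincide in all 4 maps, or lie on the chromosome with an extreme value. Recurring gaps, the domain on chromosome 17 and the comparison with the manual list were added after their values were seen. Alternatives were the manual list, other tolerances, leaving out chromosomes, maps, outermost boundaries or short domains, and other chromosome sets. Genes and sequence were not used here, since no annotation of this assembly was at hand.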

Additional observations from a re-analysis of the deposited data

Results flagged for a closer look

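Several values differed in direction between the types or chromosome classes, and none of these differences was tested. Type cannot be told apart from the number of pooled nuclei, which is higher in type 1 at both stages. The number of domains on chromosomes 17 to 28 was higher in type 1 than in type 2, by a ratio of 1.11 at the post-LBC stage and 1.15 at the LBC stage, whereas the ratios on all other chromosomes were 0.821 and 0.961. At the LBC stage the ratio was also above 1 on chromosomes 11 to 15 (1.11) and 6 to 10 (1.08). The median domain length of the smallest microchromosomes minus that of all others was -160 kb in post-LBC type 1 but 80 kb in post-LBC type 2, and -64 kb in LBC type 1 and 16 kb in LBC type 2. The density of interior boundaries minus that of all others was 0.160 per Mb in post-LBC type 1 and -0.277 per Mb in post-LBC type 2, and 0.165 per Mb in LBC type 1 and -0.107 per Mb in LBC type 2. The median of end domains minus that of interior domains was 8 kb in post-LBC type 1 but -40 kb in post-LBC type 2, and 40 kb in LBC type 1 and -64 kb in LBC type 2. For the end domains this division by type was lost with means (1 map above 0 and 3 below) and without chromosome 17 (4 of 4 below 0).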

How the results depend on the processing

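Each map is a single pool of 1 to 14 nuclei with no values of single nuclei, so neither the spread between nuclei nor the depth of a boundary is known. No paired analysis was possible because the lists hold pooled maps without replicate numbers. The longer mean at the post-LBC stage kept its direction under 29 alternatives, with ratios of 1.31 to 1.35 in type 1 and 1.25 to 1.29 in type 2 when chromosomes were left out in turn. Most of the alternatives left out a single chromosome. Each of the 12 chromosomes had the longer mean by itself in both types, so these could hardly reverse it. For the median against all other chromosomes, the mean difference over the maps (-32 kb) kept its sign in 17 of 17. The maps themselves had no common direction, with 2 above 0 and 2 below. Contrasts near 0 changed sign, and the cause was not tested. The median against chromosomes 11 to 15 (-10 kb) became 2 kb without chromosome 25 and 0 kb with domains over 300 kb. Boundary density against all others (-0.0147 per Mb) became 0.119 with the manual list, 0.00367 without chromosome 17, 1.77e-05 without chromosome 23, 0.00431 without chromosome 24, 0.0155 with chromosomes 11 and above, 0.0727 without post-LBC type 2, and 0.0843 as domains per Mb. End minus interior length (-14 kb) became 6 kb without chromosome 24 and 12 kb with domains over 300 kb. The excess of boundaries in all 4 maps (8.98 points) became -1.44 without the outermost boundaries, -1.92 against chromosomes 11 to 15 and -9.31 with both changes, and 7.26 to 11.0 without single chromosomes. The manual list gave an LBC type 1 median of 506.5 kb. The post-LBC ratio of type 1 over type 2 became 0.991 with chromosomes 11 and above. Shares between pairs of maps moved beyond their Wilson interval in 39 of 60 alternatives. Chosen after seeing the data were the boundary shares against chromosomes 11 to 15, domains per Mb and the alternatives of the type ratio.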
